A study of Mus musculus with 6 samples.

Results

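The small RNA libraries of GC-2 spd(ts) cells compared bisphenol A (BPA) with its vehicle. The deposited table listed 931 small RNAs, and the 464 with 10 or more reads in both libraries together are described here. Of these, 403 carried a miRBase-style name and 61 were candidates known only by a number. The line was derived from mouse spermatocytes and transformed in culture, which limits it as a model of germ cells in the testis. Cells were kept for 12 h without serum and then for 48 h in complete medium, which holds 10% serum. The BPA group received 120 µM BPA, a plastic monomer that can bind estrogen receptors, and the control group received 0.1% dimethyl sulfoxide, the solvent of the BPA stock. The labels do not state the solvent level of the BPA wells separately. Library totals and shares refer to the reads counted over the listed small RNAs, 3927981 in control and 3452574 with BPA. Each group had 1 small RNA library. No difference therefore has a replicate check, no test across conditions was made, and any other difference between these cultures is part of each value. All intervals are 95% intervals and cover the counting error of reads alone. PCR copies counted without molecular identifiers do not stand for separate molecules, so the counting error of molecules can be larger.

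A microRNA (miRNA) is cut in the nucleus and then in the cytoplasm from a hairpin transcript, and either the 5′ strand (5p) or the 3′ strand (3p) of the hairpin can be loaded into an Argonaute protein. The loaded strand guides the complex to mRNAs, chiefly by pairing of its seed, bases 2 to 8, with the 3′ untranslated region, and this lowers the stability and translation of the mRNA. miRNAs of equal seed are grouped as families because they can recognise the same sites. In the testis, loss of the processing enzyme Dicer in germ cells is known to disturb spermatogenesis.

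The sequences below are those of the miRNAs on which the results turn, from RefSeq on GRCm38.p6, written 5′ to 3′ with the seed in capitals. RefSeq entries matched 335 of the 464 rows, which held 95.1% of control reads and 94.0% of BPA reads. The first group shares the seed of the miR-148/miR-152 family, to which the most abundant miRNA of both libraries belongs.
miR-148a-3p: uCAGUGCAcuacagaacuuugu
miR-148b-3p: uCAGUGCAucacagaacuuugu
miR-152-3p: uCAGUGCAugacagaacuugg

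The let-7 family is shown next by its 4 most abundant members, since its share of reads was far larger in the BPA library.
let-7f-5p: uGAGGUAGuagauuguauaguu
let-7i-5p: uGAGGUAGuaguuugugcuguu
let-7c-5p: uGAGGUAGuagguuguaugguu
let-7g-5p: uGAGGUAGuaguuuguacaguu

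The next group holds other abundant miRNAs, in which miR-10a-5p and miR-10b-5p share a seed and so do miR-99a-5p, miR-99b-5p and miR-100-5p.
miR-10a-5p: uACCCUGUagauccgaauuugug
miR-10b-5p: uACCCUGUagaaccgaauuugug
miR-99a-5p: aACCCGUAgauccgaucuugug
miR-99b-5p: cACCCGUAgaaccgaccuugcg
miR-100-5p: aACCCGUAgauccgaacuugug
miR-182-5p: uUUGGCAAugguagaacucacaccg
miR-183-5p: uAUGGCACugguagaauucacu
miR-21a-5p: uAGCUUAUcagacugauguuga
miR-7a-5p: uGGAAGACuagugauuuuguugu
miR-25-3p: cAUUGCACuugucucggucuga

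Both strands of the miR-30a and miR-30e hairpins are shown because their arms went opposite ways, followed by the 3p strands of miR-28a and miR-708, which were lower than their partners in the same hairpin, and by both strands of miR-221.
miR-30a-5p: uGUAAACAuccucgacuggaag
miR-30e-5p: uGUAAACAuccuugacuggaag
miR-30a-3p: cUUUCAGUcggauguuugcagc
miR-30e-3p: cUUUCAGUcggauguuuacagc
miR-28a-3p: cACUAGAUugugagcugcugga
miR-708-3p: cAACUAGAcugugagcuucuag
miR-221-5p: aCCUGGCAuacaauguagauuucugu
miR-221-3p: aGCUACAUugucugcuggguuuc

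The last pair shares a seed, and both were among the miRNAs of highest ratio.
miR-3473b: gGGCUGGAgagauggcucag
miR-3473e: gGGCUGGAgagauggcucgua

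Reads were concentrated in very few miRNAs, and less so in the BPA library. miR-148a-3p, whose family is known to repress the DNA methyltransferase Dnmt1, lies on chromosome 6 (GRCm38, as all positions here) at 51269829 to 51269850, minus strand. It had 2767490 reads in control and 1214362 with BPA. In each library the 10 most abundant rows held 90.4% (control) or 74.0% (BPA) of all reads, and 7 of them were common to both lists. In control 1 miRNA reached 50% of the reads, 10 reached 90% and 62 reached 99%, where the BPA library needed 3, 27 and 115. The effective number of miRNAs, the inverse of the summed squared shares, was 1.99 in control and 6.68 with BPA. Without miR-148a-3p it was 15.1 and 16.2, so the remaining reads were spread nearly as evenly in one library as in the other. The reads left over numbered 1160491 in control and 2238212 with BPA. In bulk RNA, fewer cells that make a miRNA and less of it in each cell cannot be told apart.

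**Figure D1:**
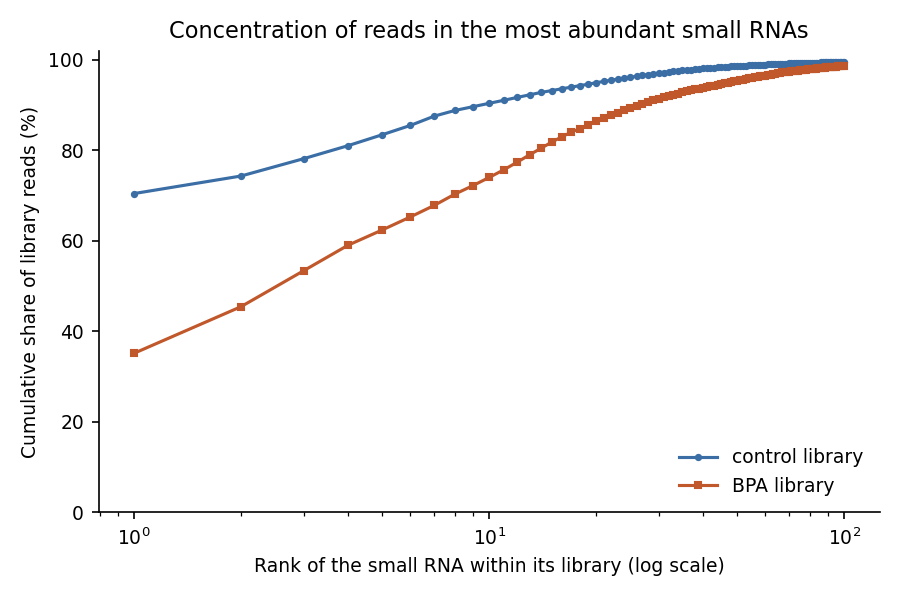
Cumulative share of library reads (y axis, %) over small RNAs ranked by abundance within each library (x axis, log scale), for the control library (circles) and the BPA library (squares). The curves start at 70.5% and 35.2%, the share of miR-148a-3p, and the BPA curve stays below the control curve throughout the 100 ranks drawn.

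The comparison of single miRNAs asked which ones differed between exposed and vehicle-treated cells, and it depends on what is held equal. A ratio of shares divides each count by its library total. By shares, 362 of 464 rows (78%) were higher in the BPA library by 2-fold or more, and 13 (2.8%) were lower by as much. The median log2 ratio of shares was 1.70. TMM (trimmed mean of M-values) scaling instead sets the bulk of miRNAs equal, and it lowered every log2 ratio by 1.68. After TMM scaling 57 rows (12.3%) passed 2-fold upward and 73 (15.7%) downward, with 334 in between, and the median was 0.02. These counts moved to 11 higher and 82 lower with 5 reads added to each count, and to 127 higher and 39 lower when libraries were scaled by their totals without miR-148a-3p. The 5 reads were added before scaling and weigh more in control, whose TMM total was smaller. They alone pull the TMM ratios of rows with few reads toward a value below 0, so the first of these moves is partly built in. Counting intervals excluded equality for 35 of the higher rows, 7.54% of the 464, and for 59 of the lower ones, 12.7%. The labels name no spike-in of known amount, so these counts cannot tell which scaling reflects amounts per cell. Ratios below are log2 ratios of BPA over control, named as share ratios or as TMM ratios.

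**Figure D2:**
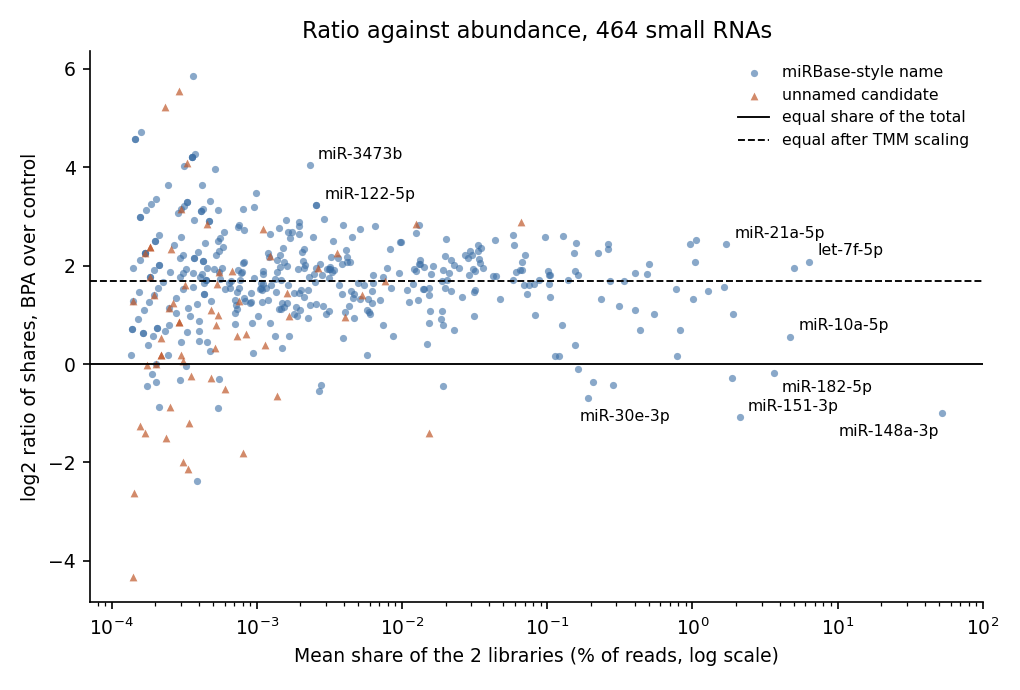
Log2 ratio of shares (y axis, BPA over control) against the mean share of both libraries (x axis, % of reads, log scale) for 464 small RNAs, with circles for miRBase-style names and triangles for unnamed candidates. Most points lie near the dashed line of equality after TMM scaling, at 1.68. Among the abundant miRNAs below the solid line of equal shares are miR-148a-3p and miR-151-3p.

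Rows past 2-fold were also counted by abundance. Of the 15 most abundant miRNAs, which held 92.4% of the control library and 81.8% of the BPA library, none was 2-fold higher and 5 were 2-fold lower by the TMM ratio. By share ratio 10 of these 15 were 2-fold higher and 2 were 2-fold lower, so the direction of this class depends on the scaling. Among all 113 rows with at least 1000 reads in both libraries together, 1 was 2-fold higher and 16 were 2-fold lower by TMM ratio, at a median of 0.03. The higher one was an unnamed candidate with 612 and 4009 reads. Below rank 150, where reads were few, the counts were 53 higher and 55 lower over 314 rows. Lower by share at least 2-fold were 3 rows with a miRBase-style name, of which miR-148a-3p and miR-151-3p were abundant and miR-30f had 26 and 4 reads. The other 10 were unnamed candidates. miR-30f is annotated at chromosome 4, 120772621 to 120772642, plus strand, opposite the miR-30e hairpin. The 61 candidates as a group had a median TMM ratio of -0.71, with 8 higher and 26 lower at 2-fold.

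Within the miR-148/miR-152 family, miR-148a-3p differed from its relatives. miR-148b-3p had 3214 and 15420 reads and a TMM ratio of 0.77 (0.71 to 0.82), and miR-152-3p had 1903 and 9192 reads and 0.78 (0.70 to 0.85). The TMM ratio of miR-148a-3p lay 3.45 below that of miR-148b-3p, a difference that no scaling of the libraries alters. For each read of miR-148b-3p and miR-152-3p together there were 541 reads of miR-148a-3p in control and 49.3 with BPA. The 2 sequences differ by C9U and U10C, counted from 1 at the 5′ end with the base of miR-148a-3p first. Reads of one can therefore be counted as the other, and how many were was not tested. The whole seed family went from 70.6% of control reads to 35.9% of BPA reads. miR-148b-3p lies on chromosome 15 at 103285185 to 103285206 and miR-152-3p on chromosome 11 at 96850439 to 96850459, both on the plus strand. The passenger strand miR-148a-5p, from the same hairpin as the abundant arm, had 547 and 838 reads and a TMM ratio of -0.88 (-1.04 to -0.72).

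The let-7 family, whose members restrain Lin28, Hmga2 and other growth genes and accumulate as cells differentiate, went from 6.27% of control reads to 24.1% of BPA reads. Its 10 rows of equal seed had a median TMM ratio of 0.14, with 7 above 0, and none reached 2-fold in either direction. let-7f-5p had 95596 and 355319 reads and a TMM ratio of 0.40, and let-7i-5p, on chromosome 10 at 122985698 to 122985719, had 80598 and 273694 reads and 0.27. let-7g-5p was at 0.39 and let-7c-5p at -0.12. By share ratio let-7f-5p was at 2.08 and let-7i-5p at 1.95, so both filled a larger part of the BPA library while their TMM ratios stayed within 2-fold. Members differ by as little as 1 base and can take each other's reads, which makes the split among them uncertain.

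Other abundant families had ratios of their own. miR-21a-5p, a miRNA of proliferating and stressed cells that lowers Pdcd4, lies on the minus strand of chromosome 11 inside Vmp1. It had 20741 and 99193 reads and a TMM ratio of 0.76. miR-25-3p, a relative of the miR-92 group, had 11738 and 55933 reads and also 0.76. miR-7a-5p, known as a brake on growth factor signalling, had 26568 and 65333 reads and -0.20. miR-143-3p, a miRNA of smooth muscle and mesenchyme, had 49151 and 87730 reads and -0.66. All 4 were higher by share and within 2-fold by TMM ratio.

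The miR-10/99/100 list, whose miR-10 genes lie in Hox clusters, was below 0 by the TMM ratio. miR-10a-5p, on chromosome 11 at 96317186 to 96317208, had 150207 and 194419 reads, a TMM ratio of -1.12 and a share ratio of 0.56, so its direction depends on the scaling. miR-10b-5p, on chromosome 2 at 74726074 to 74726096 inside the Hoxd4 and Hoxd3 genes, had 80333 and 58357 reads, a TMM ratio of -1.96 and a share ratio of -0.27, lower under both. They differ by U12A, with the base of miR-10a-5p first, and the TMM ratio of miR-10b-5p was lower by 0.83. miR-99a-5p, miR-99b-5p and miR-100-5p, which are known to repress mTOR, were at -0.36, -0.99 and -0.15. All 5 of the miR-10/99/100 list were below 0 by TMM ratio, with a median of -0.99 beside 0.02 for all 464. By share ratio 4 of the 5 were above 0, 2 of them 2-fold higher, with a median of 0.70 beside 1.70, so the direction of the list depends on the scaling. Other Hox cluster miRNAs lay on both sides of 0 by TMM ratio, with miR-196b-5p at 0.29 and miR-615-3p at -0.17.

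The miR-183/miR-96/miR-182 cluster of chromosome 6, known from sensory cells, is transcribed as one unit. miR-182-5p, at 30165962 to 30165986, had 152036 and 117316 reads and a TMM ratio of -1.87. miR-183-5p, at 30169711 to 30169732, had 29245 and 28627 reads and -1.53. miR-96-5p, at 30169506 to 30169528 between them, had 1547 and 3635 reads and -0.26. The ratios of these 5p strands thus spanned 1.61 on the log2 scale, which does not depend on scaling. The rare 3p strands were above 0 by TMM ratio. miR-183-3p had 1 and 24 reads and 2.53, miR-182-3p 4 and 29 reads and 1.22, and miR-96-3p 2 and 13 reads and 0.94. By share, miR-182-5p was at -0.19 and miR-183-5p at 0.16.

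**Figure D3:**
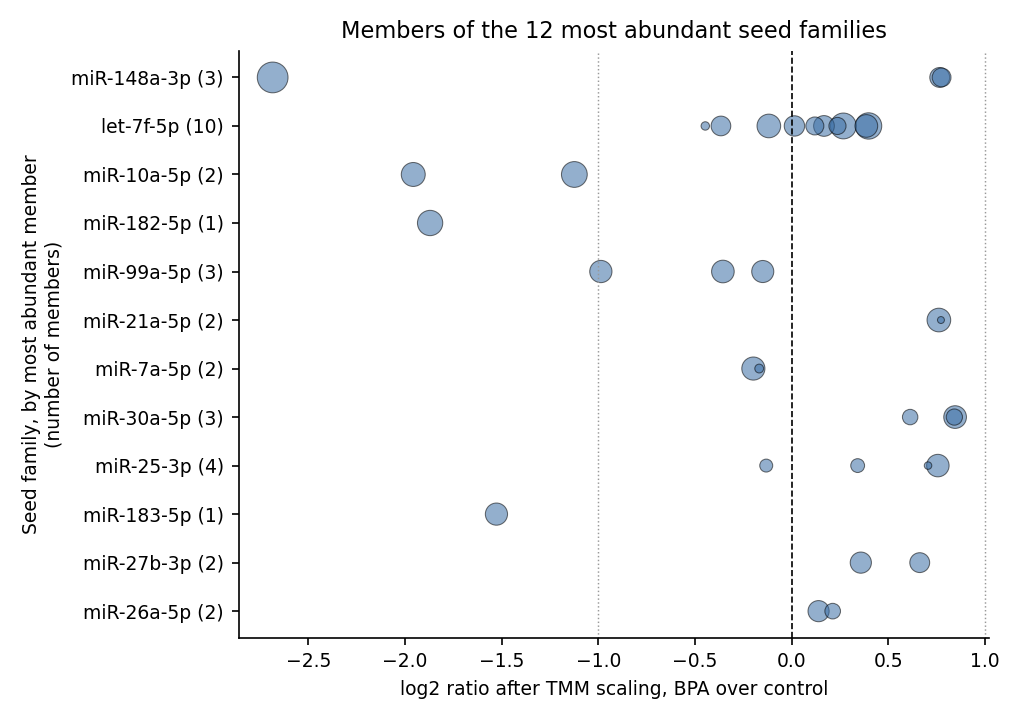
Log2 TMM ratio (x axis, BPA over control) of each member of the 12 most abundant seed families (y axis, named by the most abundant member, number of members in brackets), with circle area growing with reads. The miR-148a-3p family holds 1 member at -2.68 and a pair near 0.77, while the 10 let-7 members lie between -0.45 and 0.40.

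The 12 named miRNAs of lowest TMM ratio, among those with 100 reads or more in the higher library, ran from -2.76 to -1.53. miR-151-3p, which lies in an intron of the focal adhesion kinase gene Ptk2, was lowest, with 112735 and 46972 reads and -2.76 (-2.77 to -2.74). miR-30e-3p, on chromosome 4 at 120772618 to 120772639 in an intron of Nfyc, had 9242 and 5056 reads and -2.37 (-2.42 to -2.32). miR-28a-3p, on chromosome 16 at 24827908 to 24827929, had 12843 and 8403 reads and -2.11. miR-708-3p, on chromosome 7 at 96249496 to 96249517, had 9125 and 6191 reads and -2.06. miR-582-3p, with 863 and 556 reads in an intron of Pde4d, was at -2.13, miR-3066-5p, with 126 and 75 reads, at -2.24, and miR-709, with 124 and 81 reads, at -2.11. miR-30a-3p had 6656 and 5430 reads and -1.79. Of the 12, miR-183-5p was higher by share and the other 11 were lower by both ratios. Among the 16 lower rows with 1000 or more reads, 10 of 16 were lower by share as well.

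The 12 of highest TMM ratio were far less abundant. This contrast is partly built in by the read minimum, which was applied to raw reads of the higher library. That library was BPA for these rows and control for the lowest ones. The TMM total was larger for BPA, so a row could enter the present list with fewer reads after scaling. The intervals do not allow for the choice of these rows as extremes. miR-3473b had 10 and 151 reads and a TMM ratio of 2.35 (1.50 to 3.51), and miR-3473e of the same seed had 19 and 119 reads and 1.12 (0.44 to 1.93). Both resemble a dispersed repeat of the mouse genome, so their reads cannot be placed with certainty. miR-122-5p, a liver miRNA, had 19 and 161 reads and 1.55, and miR-344d-3p had 19 and 160 reads and 1.54. miR-6390 had 128 and 799 reads and 1.14, miR-350-3p 63 and 392 reads and 1.13, and miR-126a-3p, a miRNA of endothelium, 38 and 239 reads and 1.14. miR-669a-3p, of the repeated Sfmbt2 intron cluster, was at 1.26, miR-143-5p at 1.21, miR-532-3p at 1.06 and miR-1291 at 1.00. miR-1a-3p, a muscle miRNA with 133 and 747 reads, was the last of the 12 at 0.99 and did not reach 2-fold.

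Of the higher rows, 6 were at 0 in control, and 1 of the lower rows was at 0 with BPA. miR-132-5p, a miRNA induced through CREB, had 0 and 25 reads. With 3 counts in place of 0 in its library it was 2.95-fold higher after TMM scaling and 9.48-fold higher by share. Values found this way leave out the counting error of the other count, so they are not lower limits. These rows also met the read minimum through 1 library alone. miR-126a-5p had 0 and 11 reads and was 1.30-fold higher after TMM scaling with 3 in place of 0, so it did not stay past 2-fold. miR-652-5p and miR-92b-5p had 0 and 10 reads each, 1.18-fold higher in the same way. The candidate 13_19007 had 11 and 0 reads, 10.3-fold lower after TMM scaling with 3 in place of 0. A count of 0 allows up to 0.764 CPM, the count scaled to a common library total, in control and 0.869 CPM with BPA.

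The ratio of the arms of a hairpin is free of library scaling, because both arms are read in the same library. Arms were compared in 99 hairpins with 10 or more reads of each arm, and the 5p to 3p ratio differed at least 2-fold in 46 of them, 46.5%. In 24 the 5p arm gained on its partner in the BPA library and in 22 the 3p arm did. Of the 43 hairpins with 100 or more reads of each arm, 18 differed at least 2-fold, 41.9%, and the exact interval of the odds ratio excluded equality for all 18. The more abundant arm lost against its partner in 26 of the 43 and gained in 17. At 2-fold the more abundant arm lost in 13 and gained in 5.

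The miR-30 family, whose 5p strands are known for repressing Snai1 and other genes of mesenchymal change, gained 5p reads against 3p in 3 hairpins. In the miR-30e hairpin the 5p arm had 506 and 2560 reads and the 3p arm 9242 and 5056, so the share of 5p was 5.19% and 33.6%, a log2 odds ratio of 3.21 (3.06 to 3.36). In the miR-30a hairpin of chromosome 1 the 5p arm had 12301 and 62356 reads and the 3p arm 6656 and 5430, or 64.9% and 92.0% of 5p, a log2 odds ratio of 2.64 (2.58 to 2.69). The miR-30d hairpin had 98.8% and 99.4% of 5p, with an interval of the log2 odds ratio from 0.47 to 1.68. The miR-30b hairpin did not share this, with 85.5% and 84.1% of 5p and a log2 odds ratio of -0.15 (-0.47 to 0.16). By TMM ratio the 5 measured 5p strands of the family were all above 0, from 0.11 for miR-30b-5p to 0.85 for miR-30a-5p, while of the 3p strands miR-30a-3p, miR-30e-3p and miR-30c-2-3p were at -1.79, -2.37 and -1.52, miR-30d-3p at -0.53, miR-30c-1-3p at -0.21 and miR-30b-3p at 0.26. miR-30a-5p and miR-30e-5p differ by C13U, with miR-30a-5p first, and had TMM ratios of 0.85 and 0.84. Their 3p strands differ by A18G, with miR-30e-3p first. Reads of one hairpin can therefore be counted as the other, and how many were was not tested. The arm ratios of miR-30a and miR-30e may thus not be separate observations.

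Some hairpins with a dominant 3p arm also gained 5p reads against 3p, while others, such as miR-152 and miR-148b, went the opposite way. In miR-708 the 5p arm had 51 and 269 reads beside 9125 and 6191 of 3p, 0.556% and 4.16% of the pair, a log2 odds ratio of 2.95 (2.52 to 3.42). In miR-28a the 5p share was 0.727% and 3.01% (2.08), in miR-151 0.381% and 1.42% (1.92), and in miR-148a 0.0198% and 0.0690% (1.80). In miR-143 the 5p arm had 18 and 120 reads beside 49151 and 87730 of 3p, with a log2 odds ratio of 1.87 (1.18 to 2.70). These arms stayed in the minority.

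The opposite direction was seen in hairpins such as miR-532, with 52 and 309 reads of 3p beside 14129 and 25147 of 5p, a log2 odds ratio of -1.73 (-2.19 to -1.31). In miR-152 the 5p arm had 506 and 839 reads and its share of the pair was 21.0% and 8.36%, a log2 odds ratio of -1.54. miR-221, a miRNA that lowers the cell cycle inhibitor Cdkn1b, changed its dominant arm. Its 5p arm had 4464 and 4411 reads and its 3p arm 1618 and 4632, so 5p made up 73.4% (72.3 to 74.5) of the pair in control and 48.8% (47.7 to 49.8) with BPA. The log2 odds ratio was -1.53 (-1.64 to -1.43). The more abundant arm changed in 7 of 99 hairpins. Besides miR-221 these were miR-199a, from 53.8% to 49.1% (48.2 to 50.1) of 5p, and 5 hairpins of far fewer reads, miR-132, miR-700, miR-29c, miR-331 and miR-466i. For miR-199a the interval with BPA includes equal arms. Its 3p reads also cannot be told from those of miR-199b-3p, which has the same sequence.

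**Figure D4:**
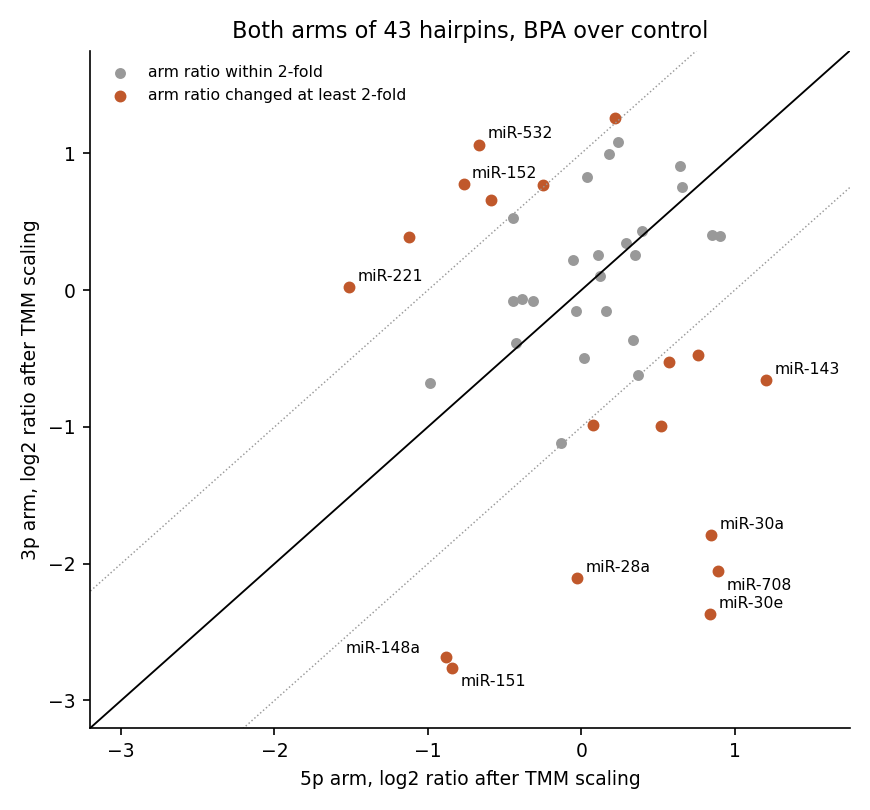
Log2 TMM ratio of the 3p arm (y axis) against that of the 5p arm (x axis) for 43 hairpins with 100 or more reads of each arm, with the diagonal of equal change and dotted lines at a 2-fold change of the arm ratio. The 18 coloured hairpins lie outside the dotted lines, and the 10 of largest arm change are named, with miR-30e, miR-708 and miR-30a at the lower right.

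Mature miRNAs that are nearly identical can share reads, so the closeness of their ratios is partly built in. Some of the pairs described next have equal sequences, and let-7 members recur in many of them. Over 33 pairs with at most 2 substitutions and 100 or more reads each, the TMM ratios differed by a median of 0.21, and 2 pairs differed by 2-fold or more, miR-148a-3p against miR-148b-3p and miR-3473b against miR-3473e. miR-199a-3p and miR-199b-3p have the same mature sequence and were listed with 1688 and 5538, and 1820 and 5639 reads, which cannot be assigned to either gene. miRNAs of one genomic cluster, both arms included, were described by their range, which grows with the number of members and is not comparable with a pairwise difference. In 15 clusters of hairpins within 10 kb of each other, only arms with 100 or more reads and a RefSeq entry at a single locus were counted. There the range of TMM ratios had a median of 0.88 and reached 1 or more in 7. Among these arms the widest range was that of Mir25, Mir93 and Mir106b in the replication gene Mcm7. There miR-106b-3p, with 13150 and 18641 reads, was at -0.99 and miR-93-5p, with 642 and 3457, at 0.93. With arms of fewer reads included, the miR-183/miR-96/miR-182 cluster was wider. It ran from miR-182-5p at -1.87 to miR-183-3p, with 1 and 24 reads, at 2.53.

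By first base, the 41 miRNAs that begin with C had a median TMM ratio of -0.48, with 2 higher and 9 lower at 2-fold. The 86 that begin with U had a median of 0.16 (2 higher, 7 lower), the 54 with A 0.01 (2 and 2) and the 15 with G 0.35 (4 and 0). Over all 196 miRNAs with a sequence and 100 or more reads the median was 0.02, with 10 higher and 18 lower. The Spearman correlation of the TMM ratio with the GC content of the mature miRNA was -0.14 over the same 196, all read from the same pair of libraries. The 98 5p strands had a median of 0.12, with 0 higher and 7 lower, and the 86 3p strands -0.08, with 5 higher and 11 lower.

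Lists of related miRNAs were described by their counts, beside a median of 0.02 with 57 higher and 73 lower over all 464 rows. By share ratio the medians of all 19 lists with 3 or more rows were above 0, including the 6 that were below 0 by TMM ratio. The miR-17-92 cluster and its paralogs, a growth-promoting group, had 12 of 15 rows above 0 by TMM ratio, a median of 0.37, and 1 row higher and 0 lower at 2-fold. Its most abundant members after miR-25-3p and miR-106b-3p were miR-93-5p at 0.93 and miR-20a-5p at 0.68. The miR-23/24/27 clusters had a median of 0.42 over 5 rows, with miR-23a-3p at 0.91, miR-27a-3p at 0.66, miR-27b-3p at 0.36 and miR-24-3p, from 5054 and 14248 reads, at -0.0010. The miR-15/16 family, which restrains cyclins, had 0.17 over 6 rows, with miR-16-5p, from 979 and 4026 reads, at 0.54. The miR-29 family, which represses collagens, had 0.13 over 3 rows, with miR-29a-3p, from 2838 and 8762 reads, at 0.13, miR-29b-3p at -0.32 and the rare miR-29c-3p, from 4 and 34 reads, at 1.44. The miR-181 family had 0.12 over 3 rows, led by miR-181a-5p at 0.15.

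miRNAs linked to stress and inflammation lay on both sides of 0. Of the miRNAs responsive to NF-kB and CREB, 5 of 8 rows were above 0, with a median of 0.15. miR-155-5p, from 424 and 1736 reads, was at 0.54, miR-146b-5p at 0.28 and miR-146a-5p at -0.20. The stress-linked list had 5 rows, a median of -0.13, and 0 higher and 2 lower at 2-fold. Its members were miR-708-3p at -2.06, miR-30c-2-3p at -1.52, the hypoxia miRNA miR-210-3p, from 198 and 668 reads, at 0.26, miR-708-5p at 0.89 and miR-210-5p at -0.13. The miR-322/miR-503 cluster had a median of -0.13 over 9 rows, 2 of them 2-fold lower, with miR-542-3p at -0.36, miR-351-5p at -0.13 and miR-322-3p at 0.34. The Sfmbt2 intron cluster had a median of 0.17 over 30 rows, 3 of them 2-fold higher, and its members can share reads. It was led by miR-467a-5p, from 831 and 1446 reads, at -0.70. Of 42 listed miRNAs of the imprinted Dlk1-Dio3 cluster 3 rows passed the read minimum, miR-379-5p, miR-127-3p and miR-381-3p, with 10 and 63 reads together. Mirtrons, which are made from short introns without Drosha, had 3 rows with 40 and 107 reads and a median of -0.39.

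Markers of cell types were also counted. The germ cell list, of meiotic and later stages, had 7 rows with 734 and 2316 reads in all, 0.0187% and 0.0671% of the libraries. Of these, miR-34c-5p made up the larger part, with 586 and 1997 reads and a TMM ratio of 0.27. miR-34b-3p had 6 and 63 reads and 1.79 (0.69 to 3.40), and miR-34c-3p 6 and 24 reads and 0.42. Of the X-linked members, miR-881-3p had 103 and 188 reads and -0.63, and miR-871-3p 28 and 13 reads and -2.57. The X-linked miR-470-5p had 3 and 23 reads and 1.25, and miR-465c-5p 2 and 8 reads and 0.27. By TMM ratio the list had a median of 0.27, with 5 rows above 0, and 2 higher and 1 lower at 2-fold. miR-34 is also a p53 target and is not particular to germ cells. No row of the epithelial or of the pluripotency list had 10 reads. The mesenchymal list had 10 rows and 56161 and 108728 reads, most of them miR-143-3p, with miR-199a-5p at -0.05 and miR-145a-5p at 0.04. The muscle miRNA miR-206-3p had 2062 and 8706 reads and a TMM ratio of 0.58. The neural and liver list had 4 rows with 599 and 1879 reads, led by miR-128-3p at -0.19 and miR-9-5p, from 116 and 573 reads, at 0.80. Blood miRNAs had 2 rows, with 10 and 48 reads, and endothelial miRNAs 2 rows, with 38 and 250. The part of such RNA in any result was not tested.

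Because mRNA libraries were made from the same RNA, each miRNA could be set beside the gene that holds its hairpin. The mRNA values are deposited log2 values, and over the 16870 genes with 10 or more recovered reads 6.88% were higher in the BPA library by 2-fold or more and 4.61% were lower, around a median of 0.02. For each hairpin the arm of most reads was taken, among arms with a RefSeq entry at a single locus and 100 or more reads. That arm can be the minor strand. The miR-532 hairpin, for example, was represented by miR-532-3p, with 52 and 309 reads beside 14129 and 25147 of miR-532-5p. In GENCODE vM21, 79 hairpins with such an arm and a measured host lay in 68 genes on the same strand. Of these hosts 0 were 2-fold higher and 3 were 2-fold lower, with a median of -0.07. The miRNAs in them had a median TMM ratio of 0.12, with 5 higher and 6 lower. Signs matched in 46 of 79 pairs, and across these pairs, which share both libraries of each kind, Spearman's rho was 0.05 and Pearson's r 0.01.

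Several pairs stood apart. Nfyc, a subunit of the CCAAT-binding factor NF-Y and host of miR-30e, had 1852 and 1954 reads and an mRNA log2 ratio of -0.03, where its 5p and 3p arms were at 0.84 and -2.37. Pde4d, host of miR-582, had 437 and 378 reads and -0.32, and Nol10, host of miR-3066, 1870 and 1637 reads and -0.30. Hoxd4, around miR-10b, had 65 and 91 reads and 0.37. Mcm7, a subunit of the replicative helicase, had 12226 and 16460 reads and 0.32. Vmp1, an autophagy gene that overlaps miR-21a, had 3722 and 3843 reads and -0.07. The 3 hosts that were 2-fold lower held miRNAs between -0.15 and 0.54. They were Mir155hg, with 37 and 2 reads, beside miR-155-5p at 0.54, Tmem164, with 1148 and 293 reads and -2.08, beside miR-652-3p at 0.26, and Dnm3os, with 177 and 72 reads and -1.40, beside miR-214-3p at -0.15. Of the processing enzymes, Drosha had 5063 and 3887 reads and -0.49, its partner Dgcr8 1892 and 2144 reads and 0.07, the exporter Xpo5 6540 and 6202 reads and -0.19, Dicer1 2008 and 2102 reads and -0.05, and the effector Ago2 6408 and 6772 reads and -0.03.

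**Figure D5:**
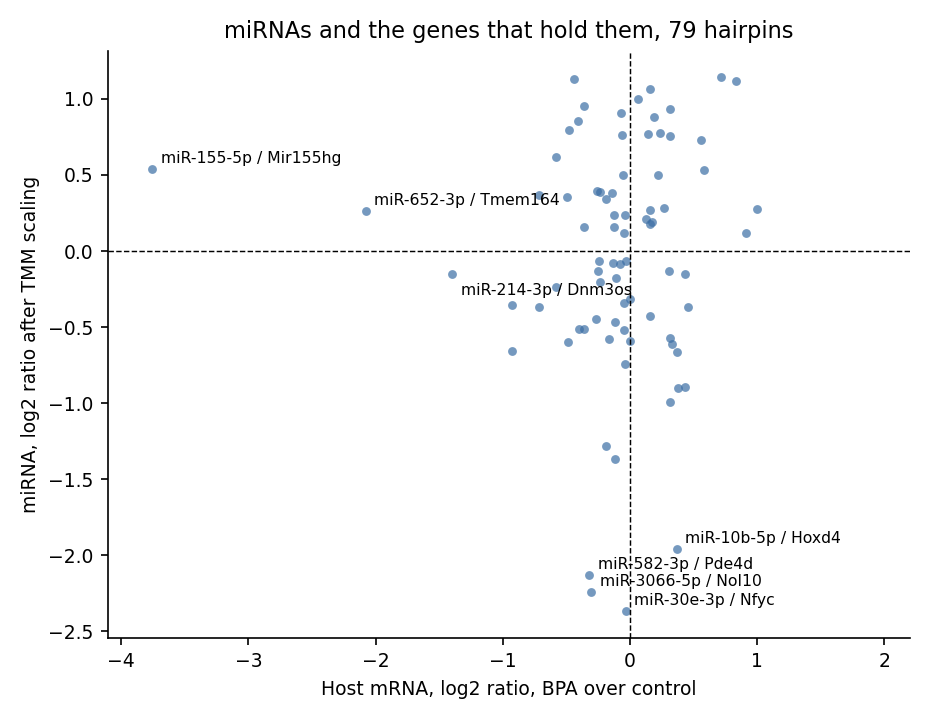
Log2 TMM ratio of an arm of 79 hairpins (y axis) against the mRNA log2 ratio of the host gene (x axis), both BPA over control. The arm is the most abundant one with a RefSeq entry at a single locus. Pairs with a ratio of the miRNA beyond 1.5 or of the host beyond 1 in size are named, and the lowest miRNAs lie above hosts between -0.32 and 0.37.

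Genes with seed matches were then compared with genes without. A match was searched on the sense strand of the 3′ untranslated region of 12767 genes, as the reverse complement of the seed (7mer) and the same followed by A (8mer). For miR-148a-3p these are TGCACTG and TGCACTGA, and an 8mer includes a 7mer. The 8mer was found in 508 genes, 3.98%, with a median mRNA log2 ratio of 0.02, where 10984 genes without a 7mer had 0.02. Of the 508, 6.10% were 2-fold higher and 2.76% 2-fold lower, beside 6.06% and 3.26% of genes without a match. Among 255 genes with 2 or more 7mers the median was 0.01. For let-7, CTACCTCA was found in 416 genes, 3.26%, with a median of 0.0016, beside 0.02 without CTACCTC. For miR-30a-5p, TGTTTACA was found in 969 genes, 7.59%, with a median of -0.00012, beside 0.03. For miR-182-5p, TTGCCAAA was found in 575 genes, 4.50%, with a median of -0.04, beside 0.03.

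Genes with a match had longer 3′ untranslated regions, of 2130 bases at the median for the miR-148a-3p 8mer against 847 without a 7mer. In the class of genes with the longest regions, the median with the 8mer less that without a 7mer was 0.01 for miR-148a-3p and -0.06 for miR-182-5p. In the middle of 3 length classes it was 0.08 for miR-148a-3p and -0.06 for miR-182-5p, and in the shortest class -0.0021 and -0.02. These are differences of medians without a test, and they compare 1 library with 1.

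A p-value for each row, comparing 1 library with 1, stands in the authors' deposited table. There, 18 of the 464 rows had a p-value under 0.05 and 1 an adjusted p-value under 0.05. That row, in the authors' deposited table, was the unnamed candidate 11_16688, with 875 and 290 reads, p = 5.08e-05 and an adjusted value of 0.0473. miR-148a-3p had a p-value of 0.967 in the authors' deposited table. Of the 18 rows, 17 were at least 2-fold lower by TMM ratio.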

How the data were processed

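Small RNA libraries were deposited as whole read counts per miRNA. TPM columns made by the authors from the same counts, per the file headers, were not used. The submitters' processing notes name Bowtie 1.1.0 and the mouse builds GRCm38 and mm10, without the role of each. For the miRNA caller, the miRNA database release and filters, the sources used here give nothing. The authors' p-values are quoted as deposited. The deposited mRNA values were log2 values (STAR and StringTie are named in the submitters' processing notes). With 1 subtracted after undoing the log2, 100% of them were whole multiples of 1 step per library, 1.04 in control and 0.962 with BPA, within 0.001, and reads were recovered from that step.

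Rows with 10 or more reads in both libraries together were compared; the 467 rows left out held 450 and 1096 reads. A ratio was (BPA + 0.5)/(control + 0.5) over the ratio of totals, or of TMM effective totals (edgeR 4.0.16, R 4.3.3, factors 0.558 and 1.79). Intervals were exact binomial (Clopper-Pearson), and for arms exact conditional intervals of the odds ratio (SciPy 1.17.1), and leave out the error of the scaling. The ratio and interval were tested on simulated data. Hosts and 3′ untranslated regions of at least 50 bases (the protein-coding transcript of longest coding sequence) came from GENCODE vM21, sequences from RefSeq. Alternatives were DESeq2 1.42.0 size factors, upper-quartile scaling, the total without miR-148a-3p, other read minimums, 5 added reads and rows with a miRBase-style name only.

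Named were the 15 most abundant miRNAs, the 12 of largest TMM ratio in each direction with 100 reads in the higher library, the 10 largest arm changes with 100 reads of each arm, up to 4 members of each list with 3 or more rows, equal seeds among the 15, and hosts of those. Others named were chosen after their values were seen. Members and lists were chosen with earlier results of these data known. The circRNA table was not used. With 1 library per group there was no test across conditions.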

Additional observations from a re-analysis of the deposited data

How the results depend on the processing

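No paired analysis was possible because each group had 1 library, so leaving out a replicate could not be tried either. With no read minimum, 684 rows were 2-fold higher and 98 lower by share, 157 higher and 214 lower by TMM ratio, and 99 of 189 arm pairs differed 2-fold. With 100 reads, these counts were 202 and 3, 15 and 24, and 18 of 43. With 5 reads added, 11 were higher and 82 lower by TMM ratio (11.8% higher, beside 43.8% as reported), and 35 of 99 arm pairs differed 2-fold. Reads added before scaling pull the TMM ratios of rows with few reads toward a value below 0. That split is therefore partly built in. With miRBase-style names only, 3 were lower by share and 47 by TMM ratio, and the share of miR-148a-3p was 70.5% and 35.3%. Scaling by the total without miR-148a-3p gave 127 higher and 39 lower, a split of 76.5% higher. DESeq2 size factors gave 62 and 68 and the upper quartile 56 and 75. An alternative chosen after seeing the data, 0.5 reads added after scaling, gave 361 and 13 by share and 61 and 68 by TMM ratio. By total count, in place of TMM, 6 of 35 named miRNAs and 6 of 19 list medians went from below 0 to above 0. Those 2-fold lower by TMM ratio were miR-10a-5p, at 0.56 by total count, miR-183-5p at 0.16 and the median of the miR-183/miR-96/miR-182 cluster at 0.16. Smaller ones included miR-143-3p at 1.02, let-7c-5p at 1.56, miR-7a-5p at 1.48, miR-99a-5p at 1.33 and the medians of the miR-10/99/100 list at 0.70 and mirtrons at 1.29. Scaling by the total without miR-148a-3p changed the sign of 3 miRNAs and 4 list medians in the same direction, DESeq2 size factors that of 1 list median, and the 100-read minimum that of 2 of 17 list medians in each direction. By the total without miR-148a-3p the log2 ratios lay 0.55 above the TMM ratios. For rows of 10 to 100 reads, depth limits the ratio to wide counting intervals.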
